A study of Mus musculus with 8 samples.

Results

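The MAP kinase phosphatases examined here are 8 genes of the dual specificity phosphatase family, Dusp1, Dusp2, Dusp4, Dusp5, Dusp6, Dusp7, Dusp10 and Dusp16. They were taken by name, with every array probe set that the platform annotation gives to 1 of these genes alone, out of 18194 genes with such a probe set. The 8 genes hold 12 probe sets: 3 for Dusp7, 2 each for Dusp10 and Dusp16, and 1 for each of the other 5 genes. RNA was measured in splenic B cells of 12-week-old C57BL/6 mice with no intact Irf4 gene (irf4-/-, called Irf4 null, n = 4 arrays) and of irf4+/+ littermates (called wild type, n = 4 arrays). Non-B cells had been removed from the spleen cells with magnetic beads, no culture or stimulation is named in the labels, and 6 µg of total RNA per sample went into 1 array. Irf4 is missing from every cell of the mutant mice and not from B cells alone. The labels do not give the deleted part of Irf4 or the sex of the mice. They also do not say that the arrays stand for different animals, so p-values describe the spread of these samples alone, some of it perhaps technical.

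MAP kinases are activated by phosphorylation of a threonine and a tyrosine in the same loop, and these phosphatases remove both phosphates and so switch the kinases off. They fall into groups by the kinase they act on and the place where they act. Dusp1, Dusp2, Dusp4 and Dusp5 encode nuclear enzymes whose genes are induced by the same stimuli that activate the kinases. Dusp6 and Dusp7 encode cytoplasmic enzymes that prefer ERK, while Dusp10 and Dusp16 encode enzymes that prefer JNK and p38. In B cells ERK, JNK and p38 are activated downstream of the B cell receptor, CD40 and Toll-like receptors.

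In Irf4 null B cells Dusp16 RNA was higher, at 2.2 times the wild-type mean (signal 2337 ± 365.7 against 1064 ± 118.1, mean ± SD, n = 4 arrays each). Dusp7 RNA was lower, at 0.644 times the wild-type mean on its brightest probe set (601.7 ± 48.9 against 934.9 ± 124.1). Dusp10 read higher on all 4 Irf4 null arrays (650.1 ± 47.9 against 461.6 ± 69.5) and missed the threshold narrowly. The other 5 genes, among them all 4 nuclear enzymes, did not pass, and Dusp1 and Dusp4 varied more between arrays of 1 genotype than between genotypes. In RNA from a whole cell preparation, more or fewer cells of a type and more or less RNA per cell cannot be told apart.

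**Figure D1:**
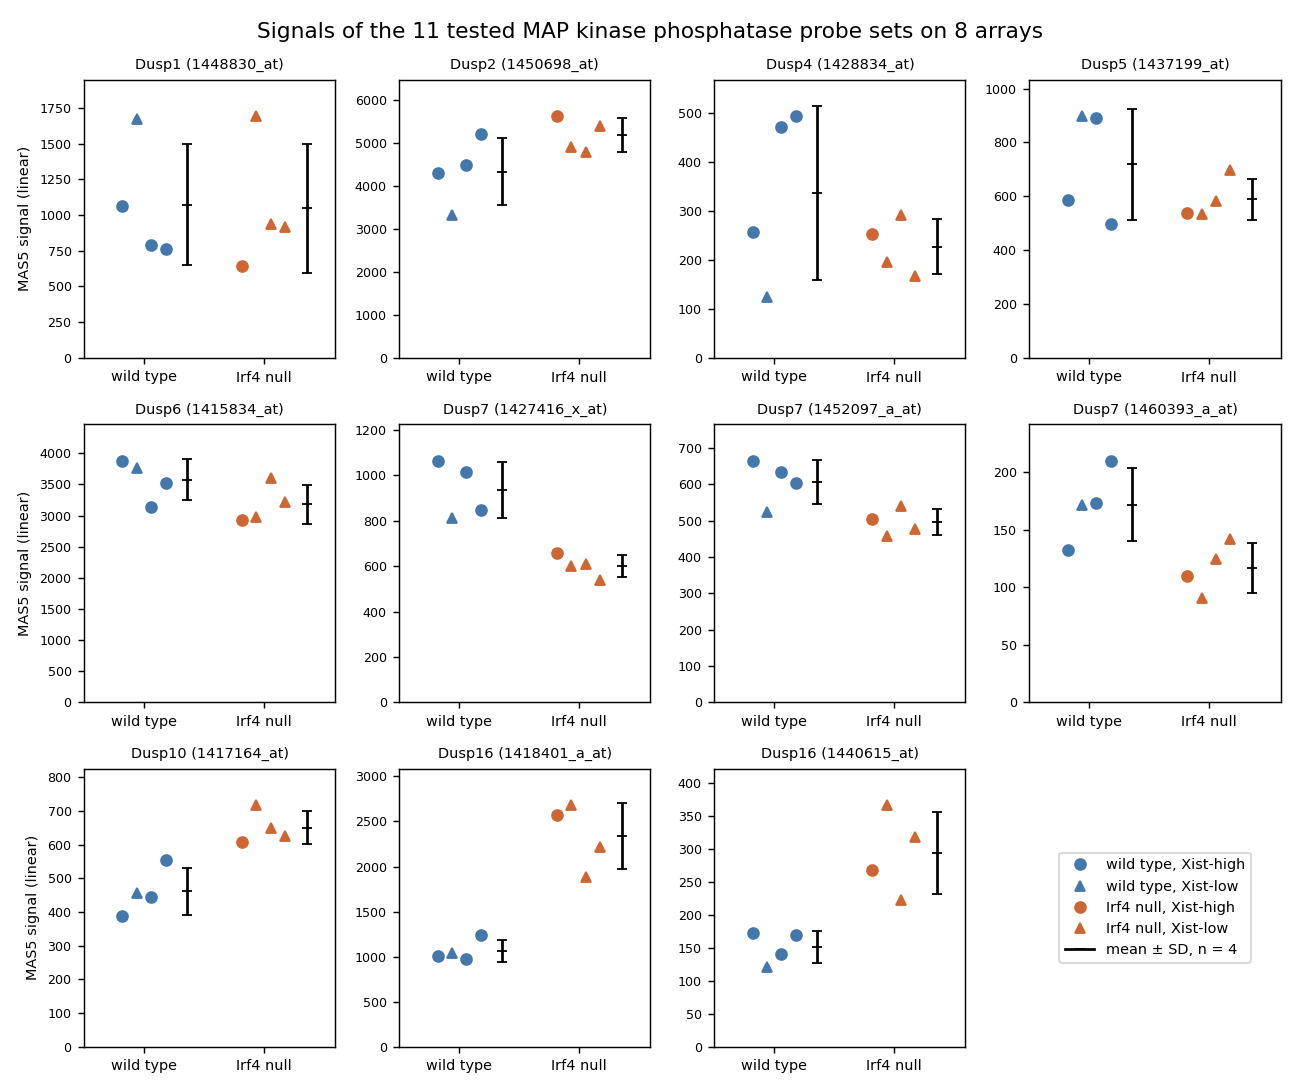
MAS5 signals (linear axes from 0) of the 11 tested probe sets on the 4 wild-type and 4 Irf4 null arrays, with the mean ± SD beside each group; circles are arrays with high Xist signal and triangles arrays with low Xist signal. The Dusp16 probe sets, the brighter Dusp10 probe set and the brightest Dusp7 probe set separate the genotypes, and the other 7 overlap.

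The arrays differed in ways that genotype does not account for. The brighter Irf4 probe set read 1720 to 2341 in wild type and 244.2 to 315.4 in Irf4 null, so the targeted gene fits the labels on every array. Xist, an RNA of the inactive X chromosome in females, read 17119 to 19652 on wild-type arrays 1, 3 and 4 and Irf4 null array 1, and 49.2 to 94.8 on the other 4 arrays. The brighter probe set of Eif2s3y, a gene of the Y chromosome, read 3.31 to 25.4 on the 4 Xist-high arrays and 3216 to 4530 on the 4 Xist-low arrays. The split is thus one of female and male RNA, which the labels do not give. Of 6 B cell markers 5 were on the array table and none passed (limma; 0 had an unadjusted p below 0.05); their summed signal was 57996 to 67815 in wild type and 59352 to 64154 in Irf4 null. Of 47 markers of T cells, NK cells, neutrophils, monocytes and macrophages, dendritic cells, red cells and platelets 40 were on the table, and none was listed at 0; Cd4 and Hba-a1 were dim, and of the 38 tested Prf1 of NK cells (log2 fold change 1.33) and Ppbp of platelets (0.81) were higher in Irf4 null (limma, adjusted p = 0.0122 and 0.0415). An unadjusted p below 0.05 was found for 13 of the 38, among them 5 of 6 NK cell and 4 of 4 platelet markers. The summed signal of all 40 was 25739 to 37606 on the 4 Xist-high arrays and 62332 to 120559 on the 4 Xist-low arrays. The Xist split holds 3 wild-type arrays and 1 Irf4 null array against 1 and 3, so the fits were repeated with an Xist-high term.

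Promoter sequence is shown for the 3 genes whose arrays separated by genotype, and for Dusp1 and Dusp5, which carry the sequence motifs of stimulus-induced genes. RefSeq sequence (build GRCm38.p6) was held for 7 of the 8 genes, all but Dusp4. Each run below is the 250 bases before the annotated start of the gene, 5′ to 3′ on the strand of the gene, and capitals mark matches to the motifs searched on both strands.

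Dusp16, chr6:134792629-134792878, minus strand: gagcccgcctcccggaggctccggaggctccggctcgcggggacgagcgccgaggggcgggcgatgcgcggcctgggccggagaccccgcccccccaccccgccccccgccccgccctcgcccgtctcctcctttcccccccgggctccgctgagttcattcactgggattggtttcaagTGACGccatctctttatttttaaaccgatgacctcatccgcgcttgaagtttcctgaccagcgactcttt

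Dusp10, chr1:184034131-184034380, plus strand: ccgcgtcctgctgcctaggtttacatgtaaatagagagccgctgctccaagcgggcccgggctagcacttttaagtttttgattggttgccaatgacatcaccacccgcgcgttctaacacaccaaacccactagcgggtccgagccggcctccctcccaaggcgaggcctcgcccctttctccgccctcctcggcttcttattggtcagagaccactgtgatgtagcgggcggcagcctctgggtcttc

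Dusp7, chr9:106368382-106368631, plus strand: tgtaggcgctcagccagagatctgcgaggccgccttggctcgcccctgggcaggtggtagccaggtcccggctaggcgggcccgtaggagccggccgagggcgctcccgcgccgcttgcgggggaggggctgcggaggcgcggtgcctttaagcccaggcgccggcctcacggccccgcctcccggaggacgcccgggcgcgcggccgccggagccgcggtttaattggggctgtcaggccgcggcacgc

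Dusp1, chr17:26508473-26508722, minus strand: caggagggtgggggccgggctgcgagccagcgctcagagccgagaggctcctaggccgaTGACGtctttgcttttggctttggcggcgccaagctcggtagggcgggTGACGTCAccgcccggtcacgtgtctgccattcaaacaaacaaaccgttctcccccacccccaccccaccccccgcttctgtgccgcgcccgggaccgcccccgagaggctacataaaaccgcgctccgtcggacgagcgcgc

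Dusp5, chr19:53528895-53529144, plus strand: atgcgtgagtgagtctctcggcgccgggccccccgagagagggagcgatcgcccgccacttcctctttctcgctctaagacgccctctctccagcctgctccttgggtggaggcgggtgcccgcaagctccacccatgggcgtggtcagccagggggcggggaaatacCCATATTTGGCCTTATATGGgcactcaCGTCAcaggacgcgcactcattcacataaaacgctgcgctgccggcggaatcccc

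The motifs searched were TGACG, which is the first part of the cyclic AMP response element TGACGTCA, that whole element, the AP-1 site TGANTCA, the CArG box bound by serum response factor, the RBPJ site TGGGAA of Notch signalling, and a pair of elements bound by interferon regulatory factors. The first of that pair is GAAA and GAAA parted by 2 bases of any kind, and the other, bound together with ETS factors, is GGAA and GAAA parted in the same way; these overlap in form. TGACG was present upstream of Dusp16 (1 match), Dusp5 (1 match) and Dusp1 (3 matches), against 17.8% of all 32851 annotated windows of this length. Dusp1 also held the whole element, present in 1.55% of windows, in which 2 of its 3 TGACG matches lie. Dusp5 held 2 CArG boxes side by side, where 1.47% of windows held at least 1 such box. Dusp2 held 1 RBPJ site, present in 21.6% of windows. Neither element of interferon regulatory factors (2.98% and 2.3% of windows) nor the AP-1 site (6.75%) had these letters in any of the 7 windows, and the Dusp6, Dusp7 and Dusp10 windows held none of the motifs. A match is a stretch of letters and not a measured binding site, and no binding was measured in these samples.

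Dusp16, the JNK- and p38-directed phosphatase that is also known as a gene of marginal zone B cells, differed most between the genotypes. Its brighter probe set (1418401_a_at) read 1010, 1036, 972.7 and 1237 on wild-type arrays 1 to 4 and 2575, 2682, 1879 and 2212 on Irf4 null arrays 1 to 4. The lowest Irf4 null array was above the highest wild-type array. On log2(signal + 16), the scale of every fold change here, it rose by 1.12 ± 0.12 (SE; limma, adjusted p = 0.000714), with a 95% interval of 0.85 to 1.39. The dimmer probe set (1440615_at) read 172.8, 121.5, 140.1 and 168.8 in wild type and 267.8, 366.4, 222 and 317.3 on the Irf4 null arrays, again without overlap. It rose by 0.88 ± 0.18 (limma, adjusted p = 0.0214).

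The brighter Dusp16 probe set kept its direction and call with the Xist-high term (1.18 ± 0.14, limma, adjusted p = 0.00116). With a covariate for other cell types, the mean log2 signal of their markers, it did so too (1.18, limma, adjusted p = 0.0015). Within the Xist-high arrays, and also within the Xist-low arrays, 1 genotype has a single array whose spread is assumed to be that of the others. The brighter probe set stood at 1.26 within the Xist-high arrays and at 1.10 within the Xist-low arrays. The difference between those values was -0.49 ± 0.40 for the dimmer and 0.16 ± 0.28 for the brighter probe set (limma interaction term, adjusted p = 0.836 and 0.942). The dimmer probe set lost its call without wild-type array 3 (0.85, limma, adjusted p = 0.0627), Irf4 null array 2 (0.77, adjusted p = 0.069) or Irf4 null array 4 (0.84, adjusted p = 0.0753).

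Dusp10, the other phosphatase of this group, separated the genotypes by less. Its brighter probe set (1417164_at) read 388.1, 457.1, 445.6 and 555.4 on the wild-type arrays, against 608.8, 717.3, 650.3 and 624.1 on the Irf4 null arrays. All Irf4 null arrays were above all wild-type arrays, with a gap of 555.4 to 608.8 between the nearest. The log2 fold change was 0.49 ± 0.12 (limma, adjusted p = 0.0504; 95% interval 0.22 to 0.75), just past the threshold of 0.05. It fell under the threshold without wild-type array 2 (0.49, limma, adjusted p = 0.0445) or wild-type array 4 (0.58, adjusted p = 0.0382), and in 7 of 23 alternatives in all, whereas it stood at 0.46 with the Xist-high term (limma, adjusted p = 0.138). The second probe set (1417163_at) read 7.34 to 47.3 in wild type and 10.8 to 39.5 in Irf4 null, was among the dimmest 40% of probe sets and was not tested.

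Dusp7, the cytoplasmic ERK phosphatase, was lower in Irf4 null on its brightest probe set. That probe set (1427416_x_at) read 1065, 810.5, 1015 and 848.9 on the wild-type arrays, against 656.6, 601.2, 611.1 and 537.9 on the Irf4 null arrays. The groups did not overlap, and it fell by 0.62 ± 0.11 (limma, adjusted p = 0.0136; 95% interval -0.87 to -0.37). The suffix of its name marks probes that may also bind other transcripts. The second probe set (1452097_a_at) read 665.8, 524.6, 634.1 and 604.5 on the wild-type arrays, against 506, 459, 541.4 and 476.4 on the Irf4 null arrays, and 1 wild-type array lay under the highest Irf4 null array. Its log2 fold change was -0.28 ± 0.11 (limma, adjusted p = 0.197). The dimmest (1460393_a_at) read 132.7, 171.7, 173.1 and 210.3 against 109.6, 91, 124.4 and 142.2, with a log2 fold change of -0.50 ± 0.18 (limma, adjusted p = 0.181). All 3 probe sets therefore pointed down and 1 of them passed. The mean of the 3 stood at -0.47 (limma, adjusted p = 0.0148).

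The Dusp7 call was less stable than that of Dusp16. The Xist-high term put it at -0.51 ± 0.12 (limma, adjusted p = 0.0468). It was lost without Irf4 null array 4 (-0.57, limma, adjusted p = 0.0509), with the other cell type markers as a covariate (-0.51, adjusted p = 0.07), within the Xist-high arrays (-0.55, adjusted p = 0.195) and within the Xist-low arrays (-0.47, adjusted p = 0.375).

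Dusp6, the other cytoplasmic ERK phosphatase and a gene that ERK signalling itself induces, read 3883, 3762, 3135 and 3528 on the wild-type arrays, against 2929, 2972, 3597 and 3209 on the Irf4 null arrays. The groups overlapped. The log2 fold change was -0.17 ± 0.092 (limma, adjusted p = 0.39), with a 95% interval of -0.37 to 0.033, so these arrays leave room for a fall of that size. The interval takes in the -0.28 of the second Dusp7 probe set but not the -0.62 and -0.50 of the other 2. Dusp6 and Dusp7 were not tested against each other. It varied little within a genotype, with an SD of 0.14 (log2) in each.

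Among the nuclear enzymes Dusp2, which is abundant in activated lymphocytes, came nearest to a difference. It read 4308, 3334, 4484 and 5223 on the wild-type arrays, against 5636, 4911, 4802 and 5401 on the Irf4 null arrays, with wild-type array 4 among the Irf4 null values and wild-type array 2 lowest of all. The log2 fold change was 0.27 ± 0.12 (limma, adjusted p = 0.285; 95% interval 0.0044 to 0.54). Its value was 0.43 ± 0.10 with the Xist-high term (limma, adjusted p = 0.0562). With the other cell type markers as a covariate it was 0.48 and passed (limma, adjusted p = 0.0255).

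Dusp1, the early response phosphatase that acts on p38, JNK and ERK, read 1063, 1673, 792.5 and 760.5 on the wild-type arrays, against 642.8, 1694, 940.1 and 913.9 on the Irf4 null arrays. Array 2 of each genotype was high, and the other 6 arrays lay between 642.8 and 1063. The log2 fold change was -0.048 ± 0.30 (limma, adjusted p = 0.959), and its 95% interval of -0.70 to 0.60 takes in changes as large as that of Dusp7. Without wild-type array 2 it was 0.19, and with the Xist-high term -0.48 ± 0.21 (limma, adjusted p = 0.345), so its direction is not settled.

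Dusp4, a nuclear phosphatase closely related to Dusp1, read 257, 123.9, 470.9 and 493.6 on the wild-type arrays, against 251.9, 195.7, 292 and 167.5 on the Irf4 null arrays. The wild-type values spanned the whole Irf4 null range. The log2 fold change was -0.39 ± 0.36 (limma, adjusted p = 0.652; 95% interval -1.19 to 0.41). It was -0.61 within the Xist-high arrays and 0.71 within the Xist-low arrays, a difference of -1.31 ± 0.53 that did not pass (limma interaction term, adjusted p = 0.628). The Xist-high term brought it to 0.052, so no direction can be given for it either.

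Dusp5, a nuclear phosphatase selective for ERK, read 585.1, 897.9, 891.1 and 498.8 on the wild-type arrays, against 539.6, 535.5, 583.9 and 697.3 on the Irf4 null arrays. Wild-type arrays 2 and 3 were above all Irf4 null arrays, array 1 was among them, and array 4 was the lowest of all 8. The log2 fold change was -0.24 ± 0.19 (limma, adjusted p = 0.575; 95% interval -0.65 to 0.17), and -0.40 ± 0.19 with the Xist-high term (adjusted p = 0.397).

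**Figure D2:**
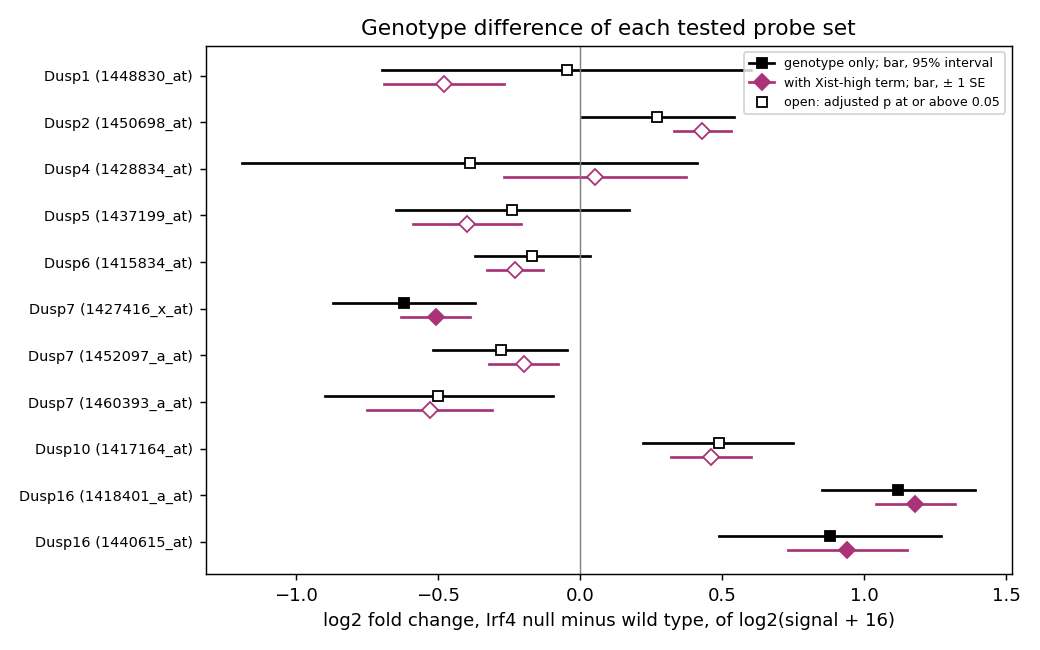
Log2 fold change (Irf4 null minus wild type) of each tested probe set, without (black, 95% interval) and with (purple, ± 1 SE) the Xist-high term; filled symbols passed at an adjusted p below 0.05. Both Dusp16 probe sets and the brightest Dusp7 probe set are filled in both fits, and Dusp4 lies at -0.39 without and 0.052 with the term.

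Counted over probe sets, 3 of the 11 tested passed, 2 higher and 1 lower, where 3.52% of all 27022 probe sets passed in either direction. At 1 probe set per gene, 1 of the 8 was higher and 1 lower, where 2.67% of all 11802 genes were higher, 1.70% lower and 4.37% either. With the Xist-high term the same genes, Dusp16 and Dusp7, passed, where 3.07% of genes did. The genotypes did not overlap in 4 of the 11 probe sets, 3 of them higher in Irf4 null, where 10.8% of all probe sets did not overlap. Without Irf4 null array 4 only the brighter Dusp16 probe set passed, and without wild-type array 3 or Irf4 null array 2 there were 2 probe sets. Whether these shares differ from those of other genes was not tested. The counts are small, and the 8 genes were chosen with earlier results of these data known.

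The phosphatases differed in how much they varied between arrays of 1 genotype. The spread of Dusp1 and Dusp4 around their genotype means was larger than that of 93% and 96.1% of all probe sets, while Dusp6, Dusp10 and the brightest Dusp7 probe set were at 23.2%, 32.9% and 30.9%. Dusp1 stood 0.71 above the wild-type mean on wild-type array 2 and 0.77 above the Irf4 null mean on Irf4 null array 2. These are the arrays with the highest summed signal of 8 neutrophil markers in each genotype, 52264 and 71890. The other wild-type arrays read 5449 to 6986 and the other Irf4 null arrays 10519 to 37158. Monocyte and macrophage markers were highest on the same arrays, 34502 (others 10640 to 14998) and 30427 (others 14995 to 28310). Wild-type array 2 also led the wild-type arrays for T cell, NK cell, dendritic cell, red cell and platelet markers. Irf4 null array 2 did not lead the Irf4 null arrays for any of these. The part of RNA from neutrophils or any other cell type in Dusp1 was not tested. With the other cell type markers as a covariate Dusp1 was at -0.58 (limma, adjusted p = 0.247). Of 19 immediate early genes, 5 were highest on array 2 among the wild-type arrays and 7 on array 2 among the Irf4 null arrays. For 4 (Fos, Fosl2, Myc and Atf3, singled out after their values were seen) this held in both genotypes. Egr3, Ier2, Ier5 and Btg2 went the other way and were lowest on array 2 of both genotypes. The share of all genes with either pattern was not counted.

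Dusp4 went the other way, 1.16 below the wild-type mean on wild-type array 2. Between Xist-high and Xist-low arrays, in the fit that holds both genotype and the split, Dusp1 stood at -0.87 ± 0.21 (Xist-high minus Xist-low, log2; limma, adjusted p = 0.0707) and Dusp4 at 0.89 ± 0.32 (adjusted p = 0.253), and neither passed. The same term was 0.12 ± 0.14 for the brighter Dusp16 probe set, 0.21 ± 0.12 for the brightest of Dusp7 and -0.058 ± 0.14 for Dusp10.

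**Figure D3:**
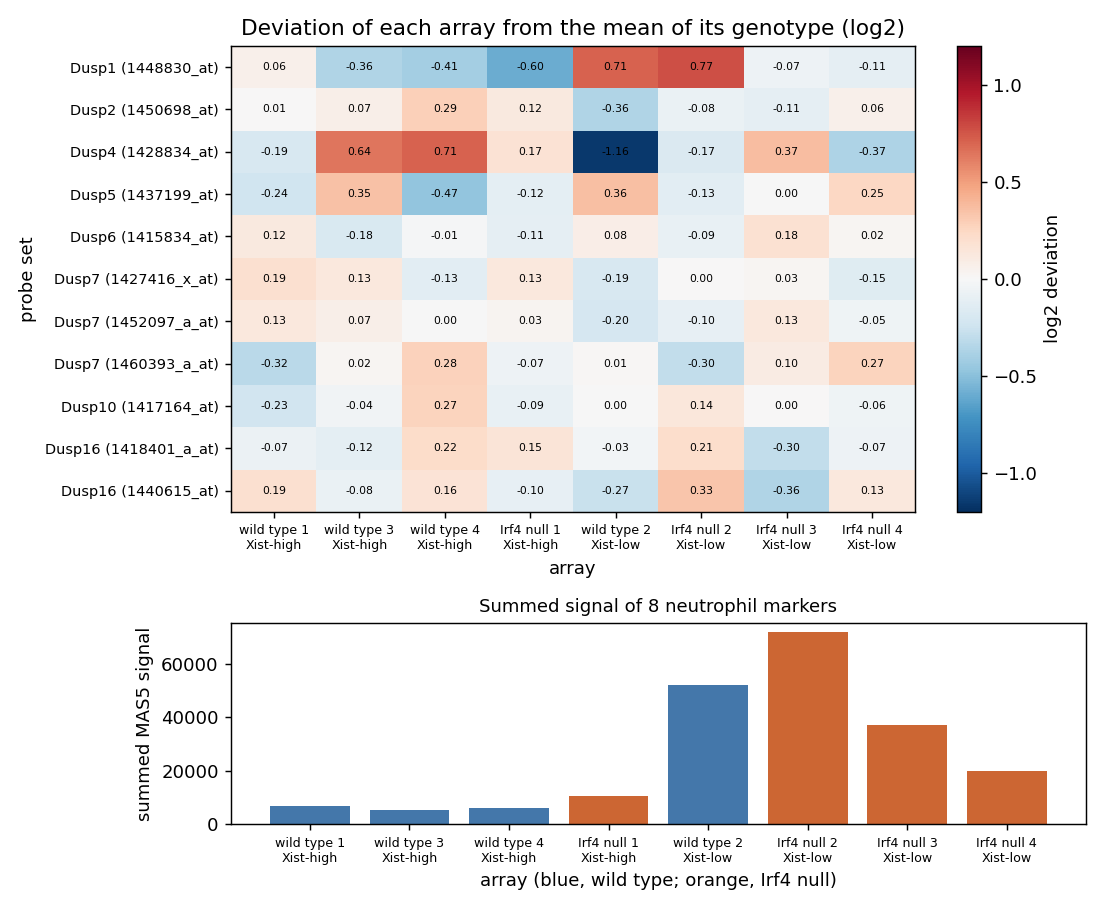
Upper panel, deviation (log2) of each array from the mean of its genotype for the 11 tested probe sets, arrays ordered as 4 Xist-high and 4 Xist-low; lower panel, summed MAS5 signal of 8 neutrophil markers on the same arrays. Dusp1 is highest on wild-type array 2 (0.71) and Irf4 null array 2 (0.77), the arrays with the tallest bars of their genotype (52264 and 71890). Monocyte and macrophage markers, not drawn, were highest on the same arrays (34502 and 30427). Dusp4 is lowest on wild-type array 2 (-1.16).

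The genes whose profile over the 8 arrays was most like that of Dusp16 were found by the root mean square difference of centred log2 values, out of 11802 genes with a median difference of 0.61. The nearest was Cd1d1, the lipid-presenting molecule that is abundant on marginal zone B cells, at 0.069. Cd1d1 read 5004, 4480, 4756 and 5848 on the wild-type arrays, against 12250, 12205, 9575 and 10346 on the Irf4 null arrays, so that its highest wild-type array (4) and lowest Irf4 null array (3) were the same as those of Dusp16. The next were Tmtc4 (0.14), Sorbs2 (0.15), Plxnc1 (0.15) and Ift27 (0.16). Genes picked for this likeness share the direction of Dusp16 by the choice. For Dusp7 the nearest were Map4k4 (0.094), a kinase that acts upstream of JNK, then Tmem64, E130307A14Rik, Armcx2 and Magi3 (0.10 to 0.11), again with the direction fixed by the choice; the median difference from Dusp7 over all genes was 0.39.

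**Figure D4:**
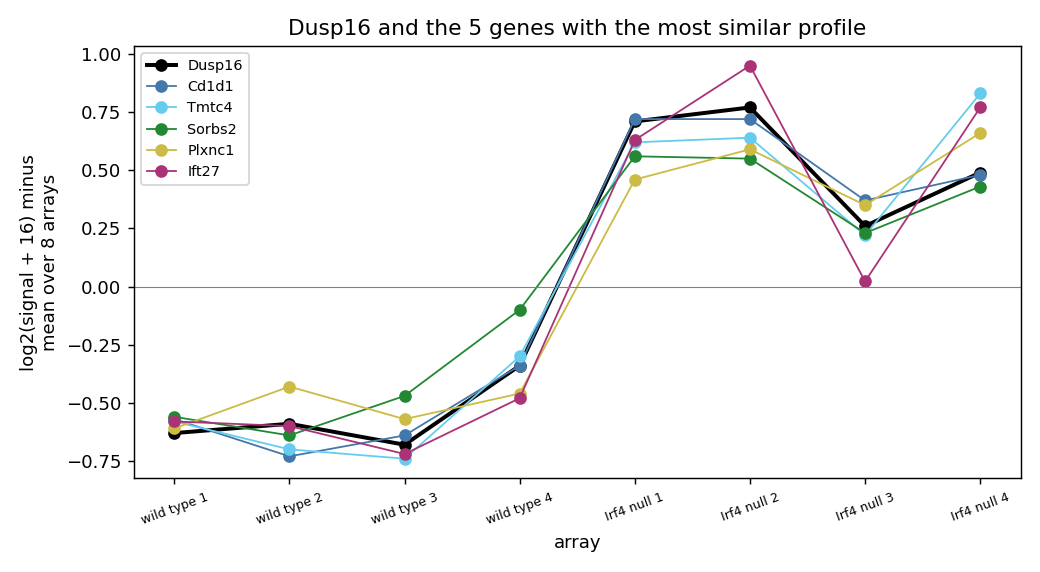
Log2(signal + 16) of Dusp16 (black) and of the 5 genes with the most similar profile, each minus its mean over the 8 arrays. Dusp16 lies between -0.68 and -0.34 in wild type and between 0.26 and 0.77 in Irf4 null, and Cd1d1 follows it with a root mean square difference of 0.069.

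Of 11 marginal zone B cell markers 6 rose and none fell, with a median log2 fold change of 1.14, where 2.67% of all genes were higher and the median of all genes was 0.025. Cd36, a scavenger receptor on the same list and named here after its values were seen, stood at -1.07 ± 0.33 without overlap (limma, adjusted p = 0.113), and passed as lower with the Xist-high term (-1.53 ± 0.26, adjusted p = 0.0111). Dtx1, a Notch target, rose by 1.44 ± 0.10 and Plxnd1, a semaphorin receptor, by 2.14 ± 0.22 (limma, adjusted p = 4.0e-05 and 0.000452). The mean of all Dtx1 probe sets rose by 0.52 (limma, adjusted p = 0.0142). Myof, a membrane repair protein, rose by 1.52 ± 0.17 (limma, adjusted p = 0.000708). This list was chosen with earlier results of these data known and is no independent evidence.

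Among 16 other dual specificity and MAPK-directed phosphatases 15 were on the array table and 10 were tested. Of these 2 were higher, 1 was lower and 7 did not pass, with a median of 0.047. Dusp22, an atypical phosphatase linked to JNK signalling, read 1173, 975.1, 1121 and 1049 on the wild-type arrays, against 2279, 2103, 2411 and 2577 on the Irf4 null arrays. It rose by 1.11 ± 0.091 (limma, adjusted p = 0.000106), close to the 1.12 of Dusp16, and passed in all 23 alternatives. In the RefSeq gene order Dusp22 is the protein-coding gene next to Irf4 on chromosome 13, while none of the 8 phosphatases above is on that chromosome; a part of the targeted locus in the Dusp22 signal was not tested. Dusp19 rose by 0.42 ± 0.098 (adjusted p = 0.0408) and Dusp3, an ERK and JNK phosphatase, fell by 0.50 ± 0.12 (adjusted p = 0.0469), and with the Xist-high term neither passed (adjusted p = 0.0741 and 0.0906). Dusp19 lost its call in 15 and Dusp3 in 14 of 23 alternatives, among them the fits without any 1 Irf4 null array, and the mean of the Dusp3 probe sets stood at -0.27 (limma, adjusted p = 0.252).

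The kinases that these phosphatases act on and their upstream activators mostly did not pass. Of 16 tested genes of the Ras and ERK cascade, out of 21 listed, 1 was higher, 1 was lower and 14 did not pass, with a median of -0.091. Map3k8, a kinase that activates ERK downstream of CD40 and Toll-like receptors, rose by 0.38 ± 0.081 (limma, adjusted p = 0.0267), and by 0.43 with the Xist-high term (adjusted p = 0.0382). It missed the threshold without wild-type array 1 or 3 or Irf4 null array 1, 2 or 4 (adjusted p = 0.0609 to 0.0894). Rasgrp3, an activator of Ras downstream of the B cell receptor, fell by 0.56 ± 0.12 (limma, adjusted p = 0.0251), and stood at -0.57 with the Xist-high term (adjusted p = 0.0555) and at -0.57 to -0.47 without wild-type array 3 or 4 or Irf4 null array 2 or 4 (adjusted p = 0.065 to 0.0792). Of 17 tested genes of the JNK and p38 cascades, out of 19 listed, none passed, and 4 had an unadjusted p below 0.05 (limma). The nearest were the p38 family kinases Mapk11, with 655.8 to 830.3 in wild type and 321.6 to 582 in Irf4 null (-0.68 ± 0.17, adjusted p = 0.0585), and Mapk12, with 196.7 to 313.5 and 38 to 153.7 (-1.25 ± 0.33, adjusted p = 0.066). Both passed without wild-type array 2 (limma, adjusted p = 0.0299 and 0.032), and Mapk11 also without Irf4 null array 1 (0.0478). Mapk11 passed in 4 and Mapk12 in 3 of 23 alternatives. With the Xist-high term they stood at -0.51 and -0.97 (limma, adjusted p = 0.19 and 0.21). The means of their probe sets stood at -0.48 and -0.76 (limma, adjusted p = 0.112 and 0.0753). Without Irf4 null array 4, where it read 38, Mapk12 stood at -0.87 (limma, adjusted p = 0.0509).

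Downstream of the kinases 14 genes were tested, of which 1 fell; the median was -0.091. It was Mef2c, a transcription factor that p38 phosphorylates, which fell by 0.55 ± 0.11 (limma, adjusted p = 0.0194) and stood at -0.43 with the Xist-high term (adjusted p = 0.0598). It missed the threshold without wild-type array 1, 3 or 4 or Irf4 null array 2 or 4 (adjusted p = 0.057 to 0.0658), and stood at -0.27 within the Xist-low arrays (adjusted p = 0.57). Among 11 tested inhibitors of ERK signalling and ERK-induced feedback genes 1 fell and 10 did not pass. Etv5, an ETS factor induced by ERK, read 351.2, 405.5, 293.2 and 396.9 on the wild-type arrays, against 227.3, 85.1, 109.7 and 151.7 on the Irf4 null arrays. It fell by 1.31 ± 0.24 (limma, adjusted p = 0.0148) and missed the threshold with the Xist-high term (-1.14, adjusted p = 0.0508) and without wild-type array 4 (-1.27, adjusted p = 0.0549). Etv5 stood at -0.57 within the Xist-high arrays (limma, adjusted p = 0.34) and at -1.71 within the Xist-low arrays (adjusted p = 0.0992). It stood at -1.10 with the marker covariate (adjusted p = 0.0713) and at -0.77 as the mean of its probe sets (adjusted p = 0.0349). Of 19 immediate early genes 1 was higher, Nr4a1, an orphan nuclear receptor induced by B cell receptor signals, by 0.58 ± 0.14 (limma, adjusted p = 0.0487), and 18 did not pass, with a median of 0.017. With the Xist-high term Nr4a1 stood at 0.48 (adjusted p = 0.154), and without wild-type array 1 or 4 or Irf4 null array 2, 3 or 4 it missed the threshold (adjusted p = 0.107 to 0.144). It stood at 0.20 within the Xist-high arrays (limma, adjusted p = 0.719).

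Over the 6 pathway lists, marginal zone markers left out, 8 of 87 tested genes passed, 4 higher and 4 lower, beside the 4.37% of all genes above. With the Xist-high term 2 passed, and with a common median of the arrays 1 was higher and 4 were lower.

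**Figure D5:**
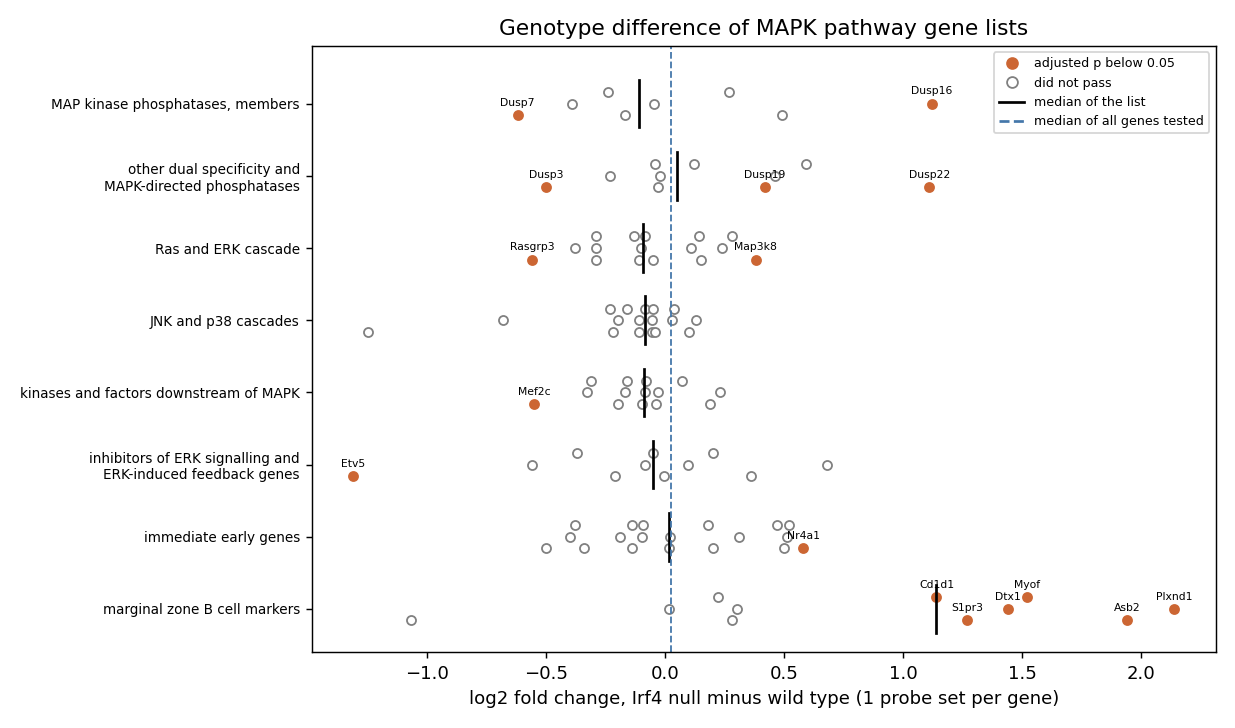
Log2 fold change (Irf4 null minus wild type) of each tested gene, 1 probe set per gene, in the 8 phosphatases and in lists of their pathway; orange points passed at an adjusted p below 0.05, black bars are list medians and the dashed line is the median of all genes (0.025). Dusp16 (1.12) and Dusp22 (1.11) lie to the right of the other phosphatases, and Dusp7 (-0.62) to the left.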

How the data were processed

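RNA of 8 B cell preparations was measured on 1 Affymetrix mouse array each. For each probe set the authors deposited a linear MAS5 intensity, per the submitters' processing notes; its version and scaling are not given there. The arrays have 1 common trimmed mean, so no normalization was added. No detection calls were used, so low signal and background cannot be told apart.

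Of 45101 probe sets 34958 carry 1 gene symbol in the platform annotation and 932 several; symbols were updated by gene identifier to RefSeq names (GRCm38.p6) for 34754. After removal of 64 control probe sets, log2(signal + 16) was taken and the dimmest 40% by mean over all arrays (up to a signal of 42.9) were dropped, which left 27022. The test was that of limma 3.58.1 (R 4.3.3; lmFit, eBayes with trend), adjusted by Benjamini-Hochberg over all 27022, with a threshold of 0.05. A gene stands by its brightest probe set. The number of arrays limits the precision, and the added 16 shrinks folds of dim probe sets.

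The phosphatases, the gene lists, the Xist split (signal over 1000) and the tests were chosen with earlier results of these data known. Named beside the 8 phosphatases are Irf4, Xist and Eif2s3y, and 5 genes of like profile for Dusp16 and Dusp7. From each list up to 4 called genes with the smallest adjusted p are named, or the 2 nearest where none passed. Further genes were named after their values were seen. The fit was tested on simulated data. The interaction term was added after the data were seen. Figures were drawn with matplotlib 3.10.9.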

Additional observations from a re-analysis of the deposited data

How the results depend on the processing

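The direction was the same under all 23 alternatives for Dusp2, Dusp5, Dusp6, Dusp7, Dusp10 and Dusp16, whose log2 fold changes ranged over 0.15 to 0.59, -0.56 to -0.12, -0.26 to -0.13, -0.68 to -0.47, 0.40 to 0.58 and 1.0 to 1.26; the call changed for Dusp2 in 1, Dusp7 in 4, Dusp10 in 7 and Dusp16 in 1 of them. Dusp1 turned to 0.11 with array weights and ranged from -0.31 to 0.19 (0.19 without wild-type array 2, 0.15 without Irf4 null array 1) when single arrays were left out. Dusp4 turned to 0.052 with the Xist-high term, 0.71 within Xist-low arrays and 0.087 with the other cell type markers as a covariate; the cause was not tested. The phosphatase probe sets called, 3, went to 1 within Xist-high arrays, 0 within Xist-low arrays (4 arrays in each) and 1 at an adjusted p below 0.01, and to 1 to 4 with single arrays left out; the genes called, 2, went to 1, 0 and 1, and to 1 to 3. Over all probe sets the 950 calls (543 higher, 407 lower) became 555 without a variance trend, 1746 with array weights, 322 and 117 within Xist-high and Xist-low arrays, 613 with the marker covariate, 330 at the stricter threshold and 466 to 2172 with single arrays left out, the most without wild-type array 2; a common median gave 384 higher and 419 lower. The 8 other pathway genes called became 5 without a filter, 5 with a common median, 2 without a trend, 16 with array weights, 2 with the Xist-high term, 2 and 1 within Xist-high and Xist-low arrays, 1 with the marker covariate, 1 at the stricter threshold and 2 to 17 with single arrays left out. With the replicate number as a block 3 phosphatase probe sets, 2 phosphatase genes, 11 pathway genes and 1168 of all probe sets passed. Whether the numbers pair the arrays is not settled. Deviations of same-numbered arrays correlated at 0.24, 0.28, -0.03 and -0.081, and 4 of 8 arrays correlated best with their own number. Signals near 42.9 or below, as for the second Dusp10 probe set, limit what can be said of a fold.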
